A study of Homo sapiens with 4 samples.

Results

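The collagen prolyl 4-hydroxylases, the lysyl hydroxylases and the lysyl oxidases are the enzymes that modify collagen chains before the triple helix folds and that cross-link collagen and elastin after secretion. The 10 genes described here are *P4HA1*, *P4HA2*, *P4HA3* and *P4HB*, the subunits of collagen prolyl 4-hydroxylase, *PLOD1*, *PLOD2* and *PLOD3*, the lysyl hydroxylases, and *LOX*, *LOXL1* and *LOXL2*, which are lysyl oxidases. They were chosen by gene symbol with a rule that uses no measured value, but with earlier results of these data known. All 10 were found among the 58243 genes used here from the expression tables, where each library has 58288 gene entries. They are described together with the HIF1α peaks at or near them. HK2 is an immortalized line of human renal proximal tubular cells, and FG-4592 (roxadustat) is an inhibitor of the HIF prolyl hydroxylases, which tag HIF1α for degradation. HIF1α ChIP-seq gave 2 peak lists and RNA-seq gave 2 expression tables, as replicates 1 and 2 of each assay, and in every sample the cells were under 50 μM FG-4592, for 6 h according to the methods of the study. No library of untreated cells was used here, so every expression value below is a level under FG-4592 and none is a response to it. The replicates of each assay are separate libraries of a single cell line, and nothing in the labels says whether they came from separate cultures.

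Prolyl 4-hydroxylase hydroxylates proline in collagen chains and so makes the triple helix stable at body temperature. It is a tetramer of catalytic alpha subunits and of the beta subunit, protein disulfide isomerase. Lysyl hydroxylases convert lysine to hydroxylysine, the site of collagen glycosylation and of stable cross-links, and lysyl oxidases are secreted copper enzymes that start cross-linking by oxidizing lysine and hydroxylysine. The prolyl and lysyl hydroxylases use iron, 2-oxoglutarate, oxygen and ascorbate, like the HIF prolyl hydroxylases, and collagen deposition and cross-linking around tubules are features of kidney fibrosis.

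The labelled cell type was compared with marker genes. FPKM, the unit of level used below, corrects the fragment number for transcript length and library size, and it was summed here over all transcripts of a gene. Of 11 proximal tubule markers, 5 had an FPKM of at least 1 in both libraries, and the list summed to 244 in replicate 1 and 231 in replicate 2. *PAX8*, a transcription factor of the renal epithelium, was the most abundant of them with a mean FPKM of 117. Of the enzymes and transporters in the list, *GGT1* had 62.3 and 58.5, *MME* 10.1 and 8.94 and *SLC5A2* 2.59 and 1.70, while *LRP2* and *SLC22A6*, a receptor and a transporter that define the mature proximal tubule, were listed at 0 in both libraries. The epithelial markers summed to 437 and 433 (4 of 5 at an FPKM of 1 or more), led by *KRT19*, with *CDH1* at 0.211 and 0.379. The mesenchymal list summed to 3626 and 3044 with all 3 of its genes expressed, and *FN1*, the fibronectin gene, led it with 2268 and 2179. *VIM* differed more between the libraries, with 1294 in replicate 1 and 802 in replicate 2. Of the 7 fibroblast markers, 2 reached an FPKM of 1, and *COL1A1* supplied 38.7 of the summed 43.1 in each library, while *COL1A2* was at 0.040 and 0 and *PDGFRA* was listed at 0. None of the 3 endothelial markers reached an FPKM of 1, and *PECAM1* was listed at 0. Of the 2 leukocyte markers *PTPRC* was listed at 0, while *CD68*, which many cell types express in lysosomes, had 33.6 and 31.5. The libraries thus carried keratin, renal transcription factor and mesenchymal transcripts, and some of the proximal tubule markers but not others.

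All 10 genes were expressed, with an FPKM of at least 1 in both libraries, as were 58.9% of the protein-coding genes found in both annotations (11567 of 19645). Mean levels ran from 5.34 for *P4HA3* to 614 for *P4HB*. The median of the mean FPKM over the 10 genes was 79.7. The medians within the single libraries were 79.3 in replicate 1 and 78.8 in replicate 2 (SD 0.378, n = 2). No test was made between genes, and a pair of neighbours in the order of levels is called apart below when the 2 libraries of one gene both lie above the 2 libraries of the other. The tables hold no read numbers, and the covered bases of all transcripts, which stand in for depth, came to 4442 Mb and 4202 Mb. Each SD rests on 2 libraries and is imprecise.

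**Figure D1:**
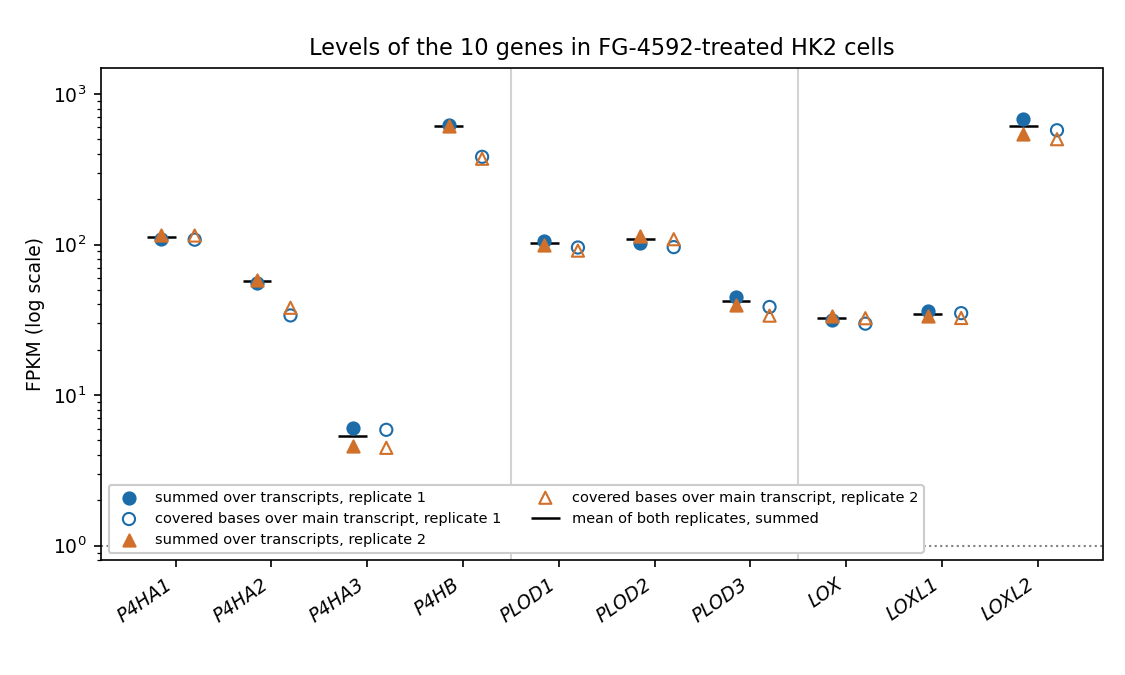
FPKM of the 10 genes on a log axis in the 2 RNA-seq libraries, with circles for replicate 1 and triangles for replicate 2. Filled symbols are sums over transcripts and short lines their means, open symbols are covered bases divided by the length of the most covered transcript, grey vertical lines separate the 3 enzyme families and the dotted line marks an FPKM of 1. *P4HB* and *LOXL2* lie above the other 8 genes and *P4HA3* lies below them, and the open symbols of *P4HB* and *P4HA2* fall below their filled symbols.

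*P4HA1* encodes the alpha subunit that most cell types use. Its FPKM was 109 in replicate 1 and 116 in replicate 2 (mean 112 ± 4.95, SD, n = 2), which placed it at rank 438 of all genes. *P4HA2*, the alpha subunit prominent in cartilage and bone, had 55.6 and 58.2 (56.9 ± 1.79), a value that depended on the counting of its 21 transcripts and was 33.8 and 38.0 in covered bases over the length of the most covered transcript (a measure chosen after seeing the data) and a mean of 18.2 for the largest transcript alone. The 2 libraries of *P4HA1* lay above both libraries of *P4HA2*. *P4HA3*, the alpha subunit found at low levels in most tissues, had 6.08 and 4.61 (5.34 ± 1.04) and was the lowest of the 10 genes in each library. Of the summed FPKM of the 3 alpha subunits, *P4HA1* held 63.8% and 64.8%, *P4HA2* 32.7% and 32.6%, and *P4HA3* 3.57% and 2.58% in replicates 1 and 2, so this split differed by about 1 percentage point or less between the libraries. The share of *P4HA2* was lower in covered bases, 22.9% and 24.2%, and with the largest transcript of each gene, about 22% and 23%. That of *P4HA3* was 3.99% and 2.84% in covered bases, and higher with the largest transcript, 7.22% and 5.54%.

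*P4HB* encodes the beta subunit, protein disulfide isomerase, which also folds other proteins of the endoplasmic reticulum and serves other complexes. Its FPKM was 618 and 609 (614 ± 6.59), 3.63 and 3.41 times the sum of the 3 alpha subunits. Short transcripts made up most of that sum. The transcript with the most covered bases, 2603 bases long and protein-coding, had an FPKM of 152 and 144, which is 24.6% and 23.7% of the gene. A coding transcript of 1669 bases had 224 and 213, and a retained-intron transcript of 914 bases had 150 and 162. FPKM divides by transcript length, so fragments assigned to short models count for more. With the bases of coverage of the whole gene divided by the length of its most covered transcript, *P4HB* had 383 and 372, or 2.59 and 2.36 times the alpha subunits measured in the same way.

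*PLOD1* encodes lysyl hydroxylase 1, which acts on the helical part of collagen chains. Its FPKM was 106 and 99.4 (103 ± 4.46). *PLOD2*, whose product hydroxylates lysines of the telopeptides, had 103 and 114 (108 ± 7.69). The ranges of *PLOD1* and *PLOD2* overlapped, as did those of *PLOD2* and *P4HA1*, so summed FPKM did not resolve the place of *PLOD2*, while both libraries of *P4HA1* lay above both of *PLOD1*. With the largest transcript of each gene in place of the sum, *P4HA1* had 56.6 and 57.1 and *PLOD1* 91.4 and 87.5, the reverse order. *PLOD3*, which encodes an enzyme that also glycosylates hydroxylysine, had 44.8 and 39.8 (42.3 ± 3.51), below both other lysyl hydroxylases in each library. Within the family, *PLOD1* held 41.7% and 39.3% of the summed FPKM, *PLOD2* 40.6% and 45.0%, and *PLOD3* 17.7% and 15.7%.

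*LOX* encodes lysyl oxidase itself, which cross-links fibrillar collagen and elastin. Its FPKM was 31.3 and 33.8 (32.5 ± 1.72). *LOXL1*, known for its part in elastic fibre assembly, had 36.0 and 33.5 (34.8 ± 1.78), and the ranges of *LOX* and *LOXL1* overlapped. Reads of *LOXL1* and its antisense gene *LOXL1-AS1*, which had an FPKM of 6.67 and 6.20, cannot be told apart where they overlap unless the counting used strand, which the sources used here do not state.

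*LOXL2*, a lysyl oxidase that acts on basement membrane collagen, was of another order. Its FPKM was 686 in replicate 1 and 539 in replicate 2 (613 ± 104), rank 68 of all genes, next to *P4HB* at rank 67. It held 91.1% and 88.9% of the FPKM of the 3 lysyl oxidases described here, and 90.5% and 88.3% when *LOXL3* and *LOXL4* were added. The gap between its libraries lay mostly in a short transcript: the coding transcript of 763 bases stood at an FPKM of 93.6 in replicate 1 against 2.41 in replicate 2. The main transcript of 3549 bases had 543 and 490, a ratio of 0.901, against 0.786 for the whole gene. In covered bases over the length of the main transcript *LOXL2* had 575 and 501, above the 383 and 372 of *P4HB* in both libraries, whereas the summed FPKM of *P4HB* fell between the 2 values of *LOXL2*. The 2 genes were therefore not resolved in summed FPKM, while *LOXL2* lay above *P4HB* in covered bases and with the largest transcript of each gene.

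In the order of mean FPKM (*P4HB*, *LOXL2*, *P4HA1*, *PLOD2*, *PLOD1*, *P4HA2*, *PLOD3*, *LOXL1*, *LOX*, *P4HA3*), 5 of the 9 neighbouring pairs were apart. The steps that held were *LOXL2* over *P4HA1* (5.46 times in the means), *PLOD1* over *P4HA2* (1.80 times), *P4HA2* over *PLOD3* (1.34 times), *PLOD3* over *LOXL1* (1.22 times) and *LOX* over *P4HA3* (6.09 times). With the largest transcript of each gene the step of *P4HA2* over *PLOD3* was reversed: *P4HA2* had a mean of 18.2, below *PLOD3* at 34.2, *LOXL1* at 32.8 and *LOX* at 30.5, and the ranges of *PLOD3* and *LOXL1* overlapped. In covered bases *P4HA2* had a mean of 35.9 and *PLOD3* 36.1, and neither the step of *P4HA2* over *PLOD3* nor that of *PLOD3* over *LOXL1* held. The other 3 of the 5 steps held in both measures, though 2 of them changed in size. *PLOD1* over *P4HA2* was wider, with means of 89.4 and 18.2 for the largest transcript and 93.4 and 35.9 in covered bases. *LOXL2* over *P4HA1* was wider with the largest transcript, with means of 516 and 56.9. In covered bases *PLOD2* over *PLOD1* and *LOXL1* over *LOX*, which overlapped in summed FPKM, were apart. The libraries differed little for most of the genes. The log2 ratio between the libraries (replicate 2 over replicate 1, pseudocount of 1) had a median of -0.05 over the 10 genes and 0.01 over the 13467 genes whose mean FPKM reached 1, and its absolute value had a median of 0.10 and 0.13. *LOXL2* had the largest difference, -0.35, followed by *P4HA3* with -0.34.

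*P4HA1*, *P4HA2* and *PLOD2* have alternative coding exons, and the tables give both the FPKM of each transcript and the coverage of each exon. In *P4HA1* the exons 9a and 9b, each of 71 bases, exclude each other. Transcripts with 9a held 36.4% and 40.5% of the FPKM of both forms, and exon 9a had 34.2% and 40.9% of the coverage of the pair. The 2 measures differed by less than the spread of the libraries, and 9b was the larger form in both. In *P4HA2* the exons 10a (60 bases) and 10b (66 bases) exclude each other, and transcripts with 10a held 61.7% and 56.2% of the FPKM of both forms (transcripts with either exon hold only 66.8% and 72.3% of the FPKM of the gene), while exon 10a had 74.3% and 72.1% of the coverage of the pair. Exon 10a was the larger form by either measure, by more in exon coverage.

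Exon 13A of *PLOD2*, 63 bases long, distinguishes the long form of lysyl hydroxylase 2, which carries the telopeptide activity, from the short form. For this exon the 2 measures gave opposite pictures. Transcripts with 13A held 13.4% and 14.4% of the FPKM of both forms, and the transcript without it had an FPKM of 82.8 and 92.9. The coverage of exon 13A itself was 542 and 574 reads per base, against 731 and 785 in the exon before it and 711 and 838 in the exon after it, which puts 13A at 75.2% and 70.7% of its neighbours. The main transcript with 13A had a coverage of 538 and 549 in that exon but a median of 24.4 and 28.2 over its other inner exons. It had 335 and 339 in the exon before 13A and 420 and 450 in the exon after it. Its coverage fell off farther away, where most of the coverage was assigned to other transcripts. Coverage was uneven along the gene: over the 17 inner exons shared by both forms the lowest value was 95.7 and 99.2 and the highest 1044 and 1117, and exons 4 and 12 were the low ones in each. The share of the long form in these cells is therefore not fixed by the tables, and the 2 values are given side by side.

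**Figure D2:**
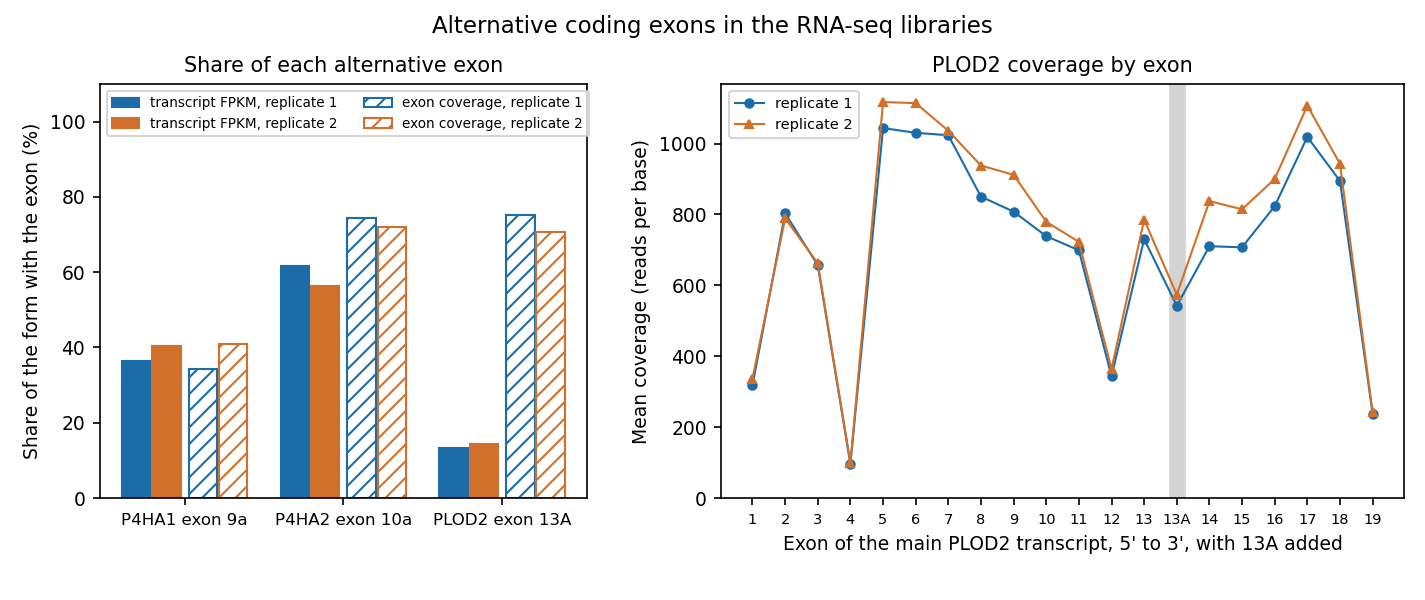
Left, share (percent) of the form with exon 9a of *P4HA1*, 10a of *P4HA2* and 13A of *PLOD2* in replicates 1 and 2, by transcript FPKM (filled bars) and by exon coverage (hatched bars; for 13A, coverage relative to the mean of its 2 neighbouring exons). Right, mean coverage in reads per base of each exon of the main *PLOD2* transcript with 13A added (grey band), in 5′ to 3′ order. For *PLOD2* the filled bars stand at 13.4% and 14.4% and the hatched bars at 75.2% and 70.7%.

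ChIP-seq recovers DNA bound by a protein with an antibody, here against HIF1α, and a peak is a region where the recovered reads pile up. Replicate 1 lists 1689 peaks and replicate 2 lists 16953, as positions on hg19 (GRCh37) without a score, so the replicates are given apart. They also differ in kind: 32.9% of the peak bases of replicate 1 and 84.5% of those of replicate 2 lie in annotated exons. HIF1 binds DNA at hypoxia response elements, whose core was sought as ACGTG or GCGTG on either strand. A CACGTG palindrome holds ACGTG on each strand and counts as 2 matches at overlapping positions. The core stood in 89.3% of the peaks of replicate 1 and 48.8% of those of replicate 2 on the standard chromosomes, and within 100 bp of the peak centre in 86.1% and 26.6%. A match is a description of the letters and does not show that the factor was bound there.

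A promoter peak here overlaps the 1 kb on either side of any annotated start site of a gene. In replicate 1, 5 of the 10 genes had one (*P4HA1*, *P4HA2*, *P4HB*, *PLOD2* and *LOX*), beside 5.47% of all 20162 protein-coding genes and 8.68% of the 11567 that were expressed in both RNA-seq libraries. In replicate 2 it was 5 of 10 (*P4HA1*, *P4HB*, *PLOD2*, *LOX* and *LOXL1*), beside 13.9% and 20.2%. These shares rise with expression, and 9 of the 10 genes had a mean FPKM of at least 10. Among protein-coding genes with a mean FPKM of 100 or more, 14.0% had a promoter peak in replicate 1 and 49.0% in replicate 2, and 3 of the 5 described genes at that level had one in each replicate. From 10 to 100 it was 10.2% and 26.0%, and 2 of 4 in each replicate. A promoter peak in both replicates was found for 4 genes (*P4HA1*, *P4HB*, *PLOD2* and *LOX*), beside 1.75% of protein-coding genes. With only the first start site of each gene the counts fell to 3 in replicate 1 (*P4HA1*, *P4HB* and *LOX*), 3 in replicate 2 (*P4HA1*, *LOX* and *LOXL1*) and 2 in both (*P4HA1* and *LOX*), beside 4.29%, 5.80% and 0.967% of protein-coding genes. Within 10 kb of any start site they were 7 in replicate 1 and 8 in replicate 2, beside 8.09% and 37.4%. The count for replicate 2 rested in part on minor start sites inside *P4HB*. At the start of the transcript with the most covered bases, a definition chosen after seeing the data, the counts were 5 and 4 of 10, beside 4.42% and 6.30% of genes, and *P4HB* had a peak in replicate 1 but none in replicate 2. The peaks of the 2 replicates overlapped each other at the promoters of 2 genes, *P4HA1* and *PLOD2*, beside 0.913% of protein-coding genes. Distances below are from the start of the most covered transcript.

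The sequences under replicate 1 peaks at 5 of the genes are shown as examples of the sites described below, and are not all the replicate 1 peaks with a core. Each is GRCh37 sequence on the strand of its gene, 5′ to 3′, with the cores in capitals, and reaches over the cores within 100 bp of the peak centre.
*P4HA1*, chr10:74856694-74856722: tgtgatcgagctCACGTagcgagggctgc
*P4HB*, chr17:79818921-79819107: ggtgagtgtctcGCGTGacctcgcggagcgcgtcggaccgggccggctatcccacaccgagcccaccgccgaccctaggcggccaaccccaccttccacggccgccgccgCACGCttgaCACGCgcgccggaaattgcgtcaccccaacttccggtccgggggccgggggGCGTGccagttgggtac
*PLOD1*, chr1:11990033-11990070: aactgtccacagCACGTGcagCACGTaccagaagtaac
*PLOD2*, chr3:145879161-145879190: agcgctGCGTGagcctccaCACGTagccgc
*PLOD2*, chr3:145879101-145879129: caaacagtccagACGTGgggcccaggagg
*LOX*, chr5:121414123-121414151: gctccctgtgcaACGTGtctggggggagg
*LOX*, chr5:121414045-121414073: ttgCACGTttccaatcgcattACGTGaac

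*P4HA1* (chr10:74766975-74856732, minus strand) had a replicate 1 peak at chr10:74856512-74856958 and a replicate 2 peak at chr10:74856585-74856863, which overlapped each other and the start site. The single core in both of them is the one printed above, 24 bases into the transcript in the untranslated part of the first exon. Exons cover 46.8% and 53.0% of the 2 peaks. Replicate 2 had another peak of 831 bases in the last exon, with no core.

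*P4HA2* (chr5:131525840-131631008, minus strand) had a single peak, in replicate 1, which covers the start of the most covered transcript. In replicate 2 no peak lay within 10 kb of the gene.

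*P4HB* (chr17:79801035-79818732, minus strand) had a replicate 1 peak at chr17:79818752-79819305, 341 bp upstream of the main start site and outside all exons, with 6 cores, of which 4 are in the printed window. The 6 replicate 2 peaks in the gene or within 10 kb were elsewhere. Of these, 4 lay mostly in exons of *P4HB*, among them the last exon, and 2 lay in exons of the neighbouring gene *ARHGDIA*, which had an FPKM of 72.8 and 72.4.

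*P4HA3* (chr11:73946846-74022685, minus strand) had no peak in replicate 1 within 10 kb. Its replicate 2 peak at chr11:73964590-73965652 falls in an intron of *P4HA3* but wholly in an exon of *PPME1*, a gene on the other strand that had an FPKM of 24.2 and 21.6 and was named after its values were seen. The peak is therefore at *P4HA3* by position alone.

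*PLOD2* (chr3:145752926-145881512, minus strand) had overlapping peaks at its main start site, chr3:145878929-145879382 in replicate 1 and chr3:145878697-145879291 in replicate 2. Both hold the same 3 cores, at 228, 215 and 161 bases upstream, which lie in the 2 windows printed above. The main transcript starts inside the replicate 1 peak, and other *PLOD2* transcripts start farther upstream, so that the whole peak is annotated as exon. The gene's outermost start site had no peak within 1 kb in either replicate. A further replicate 2 peak of 1306 bases lay in the last exon.

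*PLOD1* (chr1:11994262-12035595, plus strand) had no promoter peak in either replicate. Its nearest replicate 1 peak, chr1:11989823-11990227, lies 4547 bp upstream of the main start site, outside all exons. It holds a CACGTG palindrome and a further CACGT within a few bases. The start of *KIAA2013*, the nearest other protein-coding gene, is 3338 bp away from this peak, closer than the start of *PLOD1*. In replicate 2 the peaks lay in an exon of *KIAA2013* (FPKM of 40.1 and 35.7) and in the last exon of *PLOD1*. *PLOD3* (chr7:100849258-100861701, minus strand) had no peak within 10 kb in either replicate, and the nearest ones to the gene were 88346 bp away in replicate 1 and 44961 bp in replicate 2.

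*LOX* (chr5:121398890-121414108, minus strand) had a peak at its main start site in each replicate, and these did not overlap each other. The replicate 1 peak, chr5:121413994-121414274, lies 40 bp upstream and holds the 3 printed cores, at 183, 114 and 96 bases upstream. The replicate 2 peak, chr5:121413111-121413987, covers the start site and much of the first exon and holds 5 matches, none of them within 100 bp of its centre. In replicate 2 there were 2 more peaks, of 1829 and 227 bases, in the last exon, with no core.

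*LOXL1* (chr15:74218330-74244478, plus strand) had no replicate 1 peak within 10 kb, and the nearest was 184189 bp away from the gene. Its replicate 2 peak, chr15:74218820-74220133, begins 17 bp downstream of the main start site and lies wholly in exons. Exons of *LOXL1-AS1* also lie under this peak, and that gene has a start site within 1 kb of it. The peak holds 7 cores in 1314 bases, and the core nearest to its centre is in coding sequence.
*LOXL1*, chr15:74219426-74219454: ccctgccggggcGCGTGggctcggacacc

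*LOXL2* (chr8:23154410-23282841, minus strand) had no promoter peak in either replicate. Replicate 1 had a peak of 266 bases with 2 cores in an intron, chr8:23202857-23203122, at 58511 bp downstream of the main start site. Of the 5 replicate 2 peaks in the gene or within 10 kb, 1 lay in the last exon and 1 in a coding exon. The other 3 lay in exons of neighbouring genes, *R3HCC1* and *ENTPD4*, and *ENTPD4* was named after its values were seen.

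**Figure D3:**
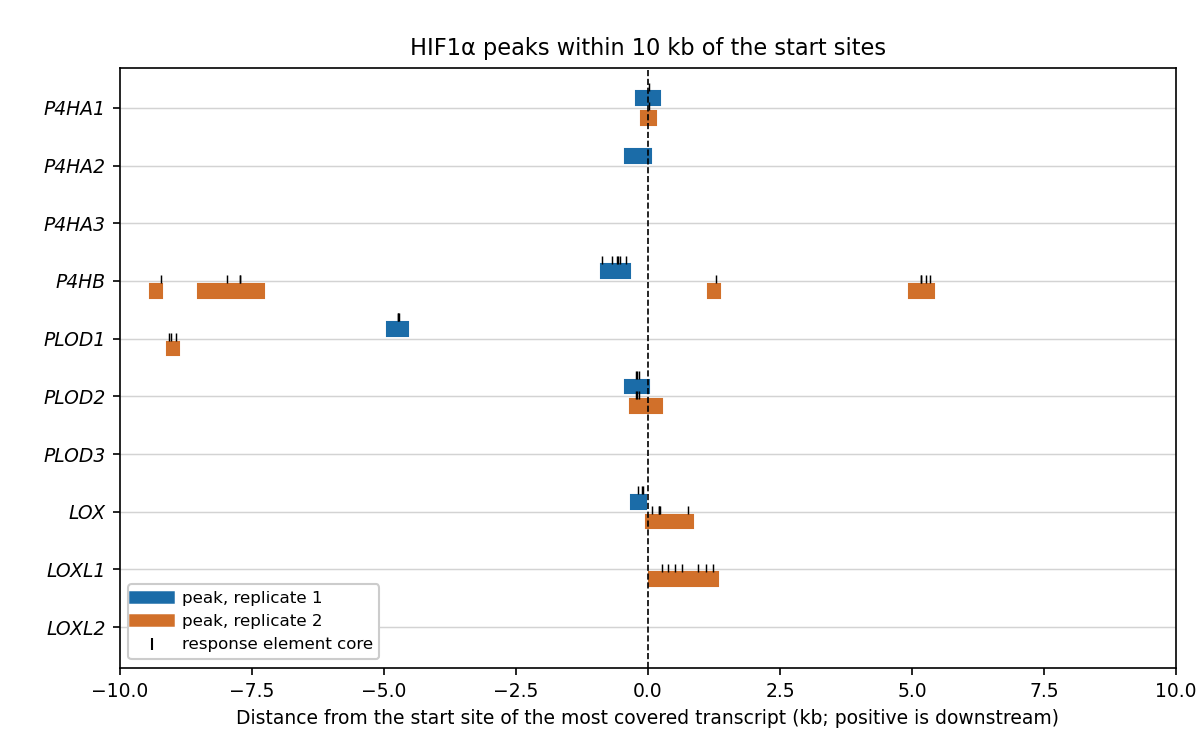
HIF1α peaks of replicate 1 (blue) and replicate 2 (orange) by distance in kb from the start site of the most covered transcript of each gene, drawn to scale, with a tick above a peak for each core whose position is reported; peaks centred farther than 10 kb away are not drawn. Replicate 1 peaks stand at or just upstream of the start sites of *P4HA1*, *P4HA2*, *P4HB*, *PLOD2* and *LOX*, and replicate 2 has overlapping peaks at *P4HA1* and *PLOD2*.

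Counted over the gene and 10 kb on either side, 7 of the 10 genes had a peak in replicate 1, beside 9.64% of protein-coding genes, and 8 of 10 in replicate 2, beside 50.0%.  The 7 replicate 1 peaks all held a core, beside 89.3% of all replicate 1 peaks, also within 100 bp of the centre, beside 86.1%, so the 7 of 7 is near the share of the whole list. Of the 7, 6 had most of their bases outside exons, the exception being that of *PLOD2*, beside 31.6% of all replicate 1 peaks with most of their bases in exons. Of the 22 replicate 2 peaks, 16 held a core, beside 48.8% of all replicate 2 peaks, and 8 held one within 100 bp of the centre, beside 26.6%. The room for a match grows with peak width, which was not matched. The 22 peaks were 227 to 2972 bases wide, and the median width of all replicate 2 peaks was 404. Of these 22, 15 had most of their bases in exons of the 7 genes *P4HA1*, *P4HB*, *PLOD1*, *PLOD2*, *LOX*, *LOXL1* and *LOXL2*, and the other 7 in exons of neighbouring genes, while 79.5% of all replicate 2 peaks had most of their bases in exons. A replicate 2 peak lay over the last exon of the most covered transcript in 6 of the 10 genes and a replicate 1 peak in none, beside 28.9% and 0.299% of protein-coding genes. At a mean FPKM of 100 or more the share in replicate 2 was 67.9%, with 5 of the 5 described genes, and from 10 to 100 it was 57.9%, with 1 of 4, so the 6 of 10 is not read as a trait of these genes.

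The share of protein-coding genes with a peak in the gene body moved with the level of expression in both replicates. In replicate 1 it was 1.67% below a mean FPKM of 1, 6.95% from 1 to 10, 10.4% from 10 to 100 and 13.8% at 100 or more. In replicate 2 the shares in the same order were 16.3%, 37.8%, 66.5% and 77.0%. The 5 genes with a mean FPKM of 100 or more (*P4HB*, *LOXL2*, *P4HA1*, *PLOD2* and *PLOD1*) all had a replicate 2 peak in the gene body, and 3 of them had one in replicate 1. Between 10 and 100, *LOX* and *P4HA2* had one in replicate 1 and *LOX* and *LOXL1* in replicate 2, and *PLOD3* had none in either. *P4HA3*, the only one of the 10 between 1 and 10, had one in replicate 2 alone. The part of expression level in the replicate 2 peaks of these genes was not tested.

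**Figure D4:**
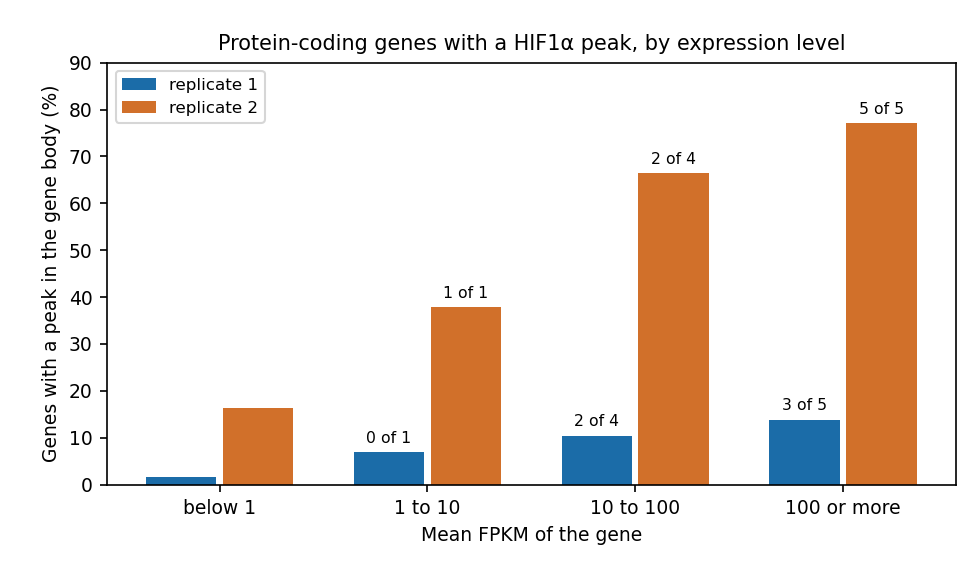
Percent of protein-coding genes with a HIF1α peak in the gene body, by mean FPKM of the gene, for replicate 1 (blue) and replicate 2 (orange), with the number of the 10 described genes that had a peak written over each bar. The share reaches 77.0% in replicate 2 and 13.8% in replicate 1 at a mean FPKM of 100 or more.

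The core was also sought in the RefSeq promoters of build GRCh38.p14, from 250 bases before to 50 after the start. Of 35116 such promoters, 48.4% held it. The table matched 8 of the 10 genes, not *P4HA3* and *LOXL2*. The core was in the promoters of *P4HA1*, *P4HB*, *PLOD1*, *PLOD2* and *LOX*, with 3 matches in *PLOD2* and 2 to 4 in the 3 promoters of *LOX*, and not in those of *P4HA2*, *PLOD3* and *LOXL1*. The 5 of 8 is to be read beside the share of all promoters. Positions were not converted between builds, so the start sites of this table were not set beside those used for the peaks.

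The pathway around these enzymes was described by 72 other genes in 12 lists, of which 51 were expressed in both libraries. Mean levels are given for named genes. The remaining lysyl oxidases were low, *LOXL3* at 1.87 ± 0.167 and *LOXL4* at 2.57 ± 0.494, as was the transmembrane prolyl 4-hydroxylase *P4HTM* at 4.40 ± 0.693. The list named for the prolyl 3-hydroxylase complex, which modifies a few prolines and isomerizes peptide bonds, also holds other genes of the *P3H* family. Its 6 genes were all expressed, from *P3H4* at 22.5 ± 1.41 to *PPIB* at 229 ± 4.43. All 8 collagen chaperones were expressed, led by *HSPA5* with 392 and 380.3. *SERPINH1*, the collagen-specific chaperone HSP47, had 60.1 in replicate 1 and 85.3 in replicate 2, and *PDIA3*, a relative of *P4HB*, had 302 and 195, with log2 ratios of 0.50 and -0.63 that were larger in size than that of any of the 10 described genes. Of the hydroxylysine glycosyltransferases, *COLGALT1* stood at 93.0 ± 3.10 and *COLGALT2* below 1. All 6 genes of procollagen export were expressed, the highest being *SEC23A* at 40.5 ± 3.37. Of the 10 procollagen proteinases and enhancers, 6 were expressed, led by *BMP1*, which cleaves the C-propeptide and activates lysyl oxidase, at 31.2 ± 0.177.

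Of the 2 collagen lists, that of basement membrane had the larger summed FPKM. *COL4A1* and *COL4A2*, the main chains of type IV collagen, had 341 ± 1.34 and 375 ± 9.97, and the 9 basement membrane collagens summed to 887 and 860, with 4 expressed in both libraries. The 11 fibrillar collagens summed to 143 and 141, again with 4 expressed. The highest was *COL5A1* at 67.9 ± 2.09, and *COL1A1* at 38.7 stood without *COL1A2*, its partner in type I collagen, which had 0.040 and 0. Of the 8 elastic fibre genes 5 were expressed, *LTBP4* at 139 ± 1.42 and *FBN1* at 47.3 ± 1.07 among them, while *ELN*, the elastin gene, had 0.167 and 0.231. The HIF hydroxylases, which FG-4592 inhibits or which share their cofactors, were all expressed, with *EGLN1* highest at 37.5 ± 1.50 and *EGLN3* lowest at 5.38 ± 0.588. Of the 5 genes of cofactor supply, 4 were expressed, with *IDH2* at 57.8 ± 0.848, the ascorbate transporter *SLC23A2* at 12.1 ± 0.254 and the copper transporter *ATP7A* at 2.15 ± 0.158.

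**Figure D5:**
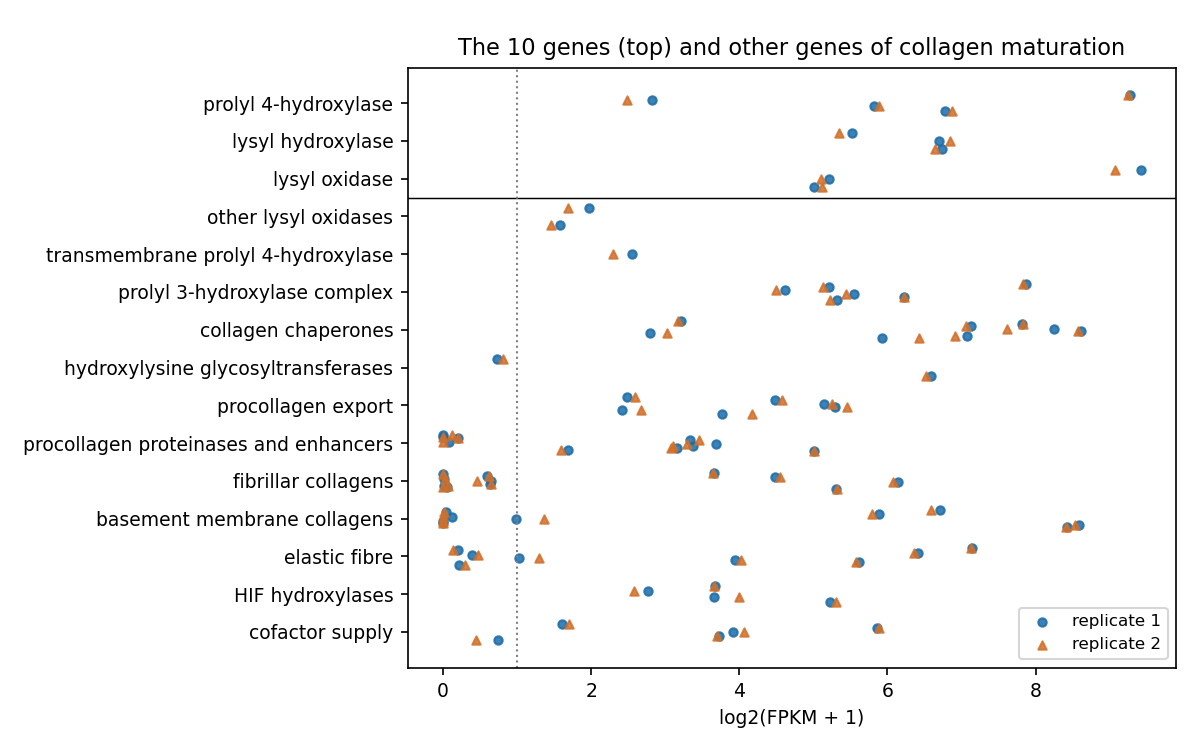
log2(FPKM + 1) of each gene in replicate 1 (circles) and replicate 2 (triangles), for the 10 described genes above the line and the 72 other genes by list below it. The 72 include HIF hydroxylases and genes of cofactor supply beside genes of collagen maturation. The dotted line marks an FPKM of 1. Genes listed under the prolyl 3-hydroxylase complex and the chaperones lie to the right of the dotted line, and the collagen lists hold genes at 0 beside genes as high as *COL4A2*.

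A promoter peak was found for 7 of the 72 genes in replicate 1 (*SERPINH1*, *PDIA6*, *TLL1*, *COL11A1*, *EFEMP2*, *EGLN1* and *HIF1AN*) and for 25 in replicate 2, beside 5.47% and 13.9% of all protein-coding genes and 8.68% and 20.2% of those expressed. All 7 were expressed, as were 51 of the 72. The share of expressed genes therefore belongs beside 7 of 51, and the share of all protein-coding genes beside 7 of 72. Whether these counts differ from those shares was not tested. Of the 7, *SERPINH1*, *EFEMP2* and *EGLN1* also had one in replicate 2. Neither the lysyl oxidases *LOXL3* and *LOXL4* nor the glycosyltransferases had a promoter peak in either replicate.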

How the data were processed

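The data used here are RNA-seq and HIF1α ChIP-seq of FG-4592-treated HK2 cells, with 2 samples for each assay. The methods of the study also describe RNA-seq of cells without FG-4592. The authors mapped RNA-seq reads with HISAT2 and deposited coverage, FPKM and TPM for each of 200401 transcripts and coverage for each exon, from StringTie 1.3.3 with the GENCODE 27 annotation per the file headers. ChIP-seq reads were aligned with Bowtie2, and the authors deposited MACS2 peaks of each replicate as positions on hg19, with no score or depth. The RNA-seq positions are on GRCh38 although the study's methods name hg19, so peaks were assigned with GENCODE 44 mapped to GRCh37 and joined to expression by Ensembl identifier.

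FPKM and TPM were summed by gene. A gene was expressed with an FPKM of at least 1 in both libraries. Promoters reached 1 kb to each side of every annotated start site, an overlap of 1 bp was enough, and genes were also extended by 10 kb. The text may name the 10 genes, the genes of the pathway and marker lists, and genes whose promoter shares a peak with them; others are said to be named after their values were seen. The members and lists were chosen with earlier results of these data known. No test was made, since no group was compared with another. Alternatives covered the unit, the minimum, the largest transcript, the pseudocount, each library alone, the windows, the start sites and the overlap. The sequence under the *P4HA2* peak and the positions of its cores are not reported here. The code was tested on simulated data. Python 3.11.15, numpy 2.4.6, pandas 2.3.3, pysam 0.24.0 and matplotlib 3.10.9 were used.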

Additional observations from a re-analysis of the deposited data

How the results depend on the processing

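No paired analysis was possible because the 2 groups that share replicate numbers hold different assays, and no result comes from a test. The median level of the 10 genes, a mean FPKM of 79.7, became 220 in TPM, a unit in which every gene is higher by a nearly constant factor, 45.5 with the largest transcript of each gene, 64.7 in covered bases over the length of the most covered transcript (chosen after seeing the data), and 78.8 to 79.3 with each library alone. The 5 separated neighbours in the order of levels were 5 in TPM and by SDs, and 6 with the largest transcript and in covered bases, though not the same pairs. *LOXL2* stood above *P4HB* in both. In covered bases *PLOD2* over *PLOD1* and *LOXL1* over *LOX* were apart, and *P4HA2* over *PLOD3* and *PLOD3* over *LOXL1* were not. With the largest transcript *P4HA1* fell below *PLOD1* and *PLOD2*, and *P4HA2* below *PLOD3*, *LOXL1* and *LOX*. All 10 genes stayed expressed under each alternative but a minimum of 5, which left 9. The share of *P4HA2* exon 10a rose from 59.0% to 73.2% and that of *PLOD2* exon 13A from 13.9% to 73.0% with exon coverage in place of transcript FPKM. Restricting promoters to the first start site of a gene left 3 genes in replicate 1, 3 genes in replicate 2 and 2 genes with a peak in each replicate, beside 4.29%, 5.80% and 0.967% of protein-coding genes. A window of 10 kb gave 8 genes in replicate 2, beside 37.4%. The 4 genes with a promoter peak in both replicates became 2 when the peaks had to overlap, also by at least 50% of the shorter peak, and 5 with either replicate alone. Of the 16 replicate 2 peaks with a core, 8 had it within 100 bp of the centre. The causes of these changes were not tested. In all, 48 recomputed values for the main results, some of them given above, stayed within the spread of the libraries or within 1.5 times the main count. Another 14 did not. The peak lists give no depth, and 2 libraries limit every SD.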
